A study of Homo sapiens with 12 samples.

Results

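The transcripts described here are those of 10 genes of the BCL2 family, which set whether a myeloma cell survives or dies through its mitochondria. They were taken as every probe set annotated to the single symbol BCL2, BCL2L1, MCL1, BCL2A1, BCL2L11, BBC3, BAK1, BAX, BIK or PMAIP1. This gave 45 of the 45253 probe sets with a single gene symbol, and 10 of 18239 genes. All 10 genes passed the filter on low levels. RNA came from 3 cell lines labelled as multiple myeloma lines, ARP1, JJN3 and RPMI-8226, and each line gave 1 Affymetrix array for each of 4 groups. The control groups were cells of each line labelled as control, and the CPI203 groups received 0.01 µM of CPI203, an inhibitor of the BET bromodomain proteins that read acetylated chromatin. The LenDex groups received lenalidomide, an immunomodulatory drug that redirects the cereblon ubiquitin ligase, at 5 µM together with dexamethasone, a synthetic glucocorticoid, at 0.05 µM. The Combo groups received all of these agents, and exposure lasted 6 h. Lenalidomide and dexamethasone were always given together here, so their separate parts cannot be told apart. Each group held 3 arrays, 1 per line, so the replicates of a group were different lines and not repeat cultures of the same line.

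BCL2 family proteins work by binding one another at the outer mitochondrial membrane. The survival proteins BCL2, BCL-XL (the product of BCL2L1), MCL1 and BFL1 (the product of BCL2A1) hold the pore formers BAX and BAK (the product of BAK1) in check. The BH3-only proteins BIM (BCL2L11), PUMA (BBC3), NOXA (PMAIP1) and BIK occupy the survival proteins, and some of them also activate BAX and BAK, after which cytochrome c leaves the mitochondrion and caspases are switched on. Plasma cells and myeloma cells are known for leaning on MCL1, glucocorticoids are known to raise BIM and PUMA in lymphoid cells, and NOXA is known for binding MCL1. Protein levels and cell death were not analysed here.

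Values are log2 levels, so a difference of 1 is a doubling. Array medians lay between 5.304 and 5.375, and levels close to them are treated below as low. The lines themselves stood apart. The values that follow take the control and drug-treated arrays of each line together, so they do not describe untreated cells alone. Over the 15173 genes tested, arrays labelled JJN3 correlated with arrays labelled RPMI-8226 at r of 0.963 to 0.981, against 0.876 to 0.887 between ARP1 and JJN3 and 0.867 to 0.880 between ARP1 and RPMI-8226. The median of 12 plasma cell markers was 11.33 to 11.59 on ARP1 arrays, against 7.37 to 8.12 on those labelled JJN3 and 7.58 to 8.75 on those labelled RPMI-8226. Of the defining markers, SDC1 (CD138) averaged 12.03, 5.38 and 5.19, PRDM1 (the plasma cell regulator BLIMP1) averaged 11.31, 5.43 and 5.38, and the B cell antigen MS4A1 (CD20) averaged 4.95, 11.73 and 11.71. The log2 of the summed level of 9 B cell markers ran from 8.83 to 8.95 for ARP1, but from 13.07 to 13.25 for JJN3 and from 12.77 to 13.13 for RPMI-8226. The lists were not uniform: IRF4 averaged 12.05, 12.71 and 12.95 and TNFRSF13B 6.12, 7.69 and 8.52 in ARP1, JJN3 and RPMI-8226, XBP1 stayed at 10.51 and 10.47 in the latter lines, and the B cell gene PAX5 was level at 7.13, 7.01 and 7.14. Arrays labelled JJN3 and RPMI-8226 thus lacked high SDC1 and PRDM1, and the line names below are the labels of the arrays. T cell, monocyte and fibroblast marker medians were between 4.846 and 5.403 on all arrays, although CD3D averaged 7.51 on the JJN3 arrays, and the fetal globin gene HBG1 averaged 12.31, 13.27 and 7.66 in the 3 lines. Because the JJN3 and RPMI-8226 arrays were so alike, the called treatment results are also given with them averaged as 1 line.

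The survival genes split by line. BCL2, whose protein is the target of venetoclax, was low in ARP1 and high in the other lines. Its levels under control, CPI203, LenDex and Combo were 5.42, 5.17, 5.07 and 4.97 in ARP1. They were 10.48, 10.82, 10.03 and 10.56 in JJN3. They were 10.18, 10.31, 10.02 and 10.25 in RPMI-8226. ARP1 did not overlap the other lines and lay 5.31 ± 0.13 (SE) log2 units under JJN3 on average, a fitted difference of 39.8-fold. BCL2A1, an NF-kB-driven survival gene of lymphoid cells, followed the same pattern. It read 5.41, 4.64, 5.71 and 4.44 in ARP1 under the same 4 conditions, against 12.04, 12.14, 11.57 and 11.64 in JJN3 and 11.78, 11.43, 11.18 and 10.995 in RPMI-8226. The fitted differences were 111-fold under JJN3 and 78.6-fold under RPMI-8226. Both genes sat near or under the array median in ARP1, so these folds rest on a low level on that side, are no exact sizes and give no order between the 2 genes. They also depend on the probe set. With the probe sets of a gene averaged, the difference between ARP1 and JJN3 was -2.93 for BCL2, -3.54 for BCL2A1 and -0.77 for BCL2L1, and the dimmer BCL2A1 probe set alone gave -0.29 (adjusted p = 0.0888, limma).

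BCL2L1 followed the same order at a smaller distance, while MCL1 ran the other way. BCL2L1 lay 3.37-fold lower in ARP1 than in JJN3 and 3.004-fold lower than in RPMI-8226. These folds come from its brightest probe set. A second gave -0.37 against JJN3 and -0.17 against RPMI-8226 (adjusted p = 0.0695 and 0.413, limma). The last gave -0.19 and -0.65 (adjusted p = 0.433 and 0.012, limma). MCL1 encodes a short-lived survival protein. In ARP1 it read 12.17, 12.35, 12.47 and 12.57. In JJN3 it read 11.21, 11.86, 11.30 and 11.76, and in RPMI-8226 11.18, 11.84, 11.13 and 11.67. Every ARP1 array lay above every array of the other lines, by 1.82-fold on average over JJN3 and by 1.91-fold over RPMI-8226. Of the 4 survival genes, MCL1 was thus higher in ARP1 than in the other lines, and BCL2, BCL2L1 and BCL2A1 were lower.

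The pore formers went in opposite directions. BAK1 was higher in ARP1, at 10.04, 9.85, 10.40 and 10.34, than in JJN3, at 7.20, 7.17, 7.71 and 8.04, or RPMI-8226, at 7.82, 7.72, 7.74 and 8.11. The average difference was 6.19-fold over JJN3 and 4.97-fold over RPMI-8226. BAX was lower in ARP1, at 9.29, 9.20, 9.49 and 9.46, than in JJN3, at 10.41, 10.77, 10.90 and 10.71, or RPMI-8226, at 10.87, 10.82, 10.59 and 10.75. The difference was 2.53-fold under JJN3 and 2.63-fold under RPMI-8226. No ARP1 array overlapped the other lines for either gene.

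Among the BH3-only genes, BCL2L11 and BIK were higher in ARP1 and BBC3 and PMAIP1 lower. PMAIP1 read 7.52, 7.79, 7.298 and 7.20 in ARP1. JJN3 gave 11.54, 11.82, 11.52 and 11.62 and RPMI-8226 gave 11.61, 11.77, 11.68 and 11.79, so that ARP1 was 18.0-fold and 19.1-fold lower. BBC3 was 6.97-fold lower in ARP1 than in JJN3 and 5.99-fold lower than in RPMI-8226. BCL2L11 was 4.47-fold and 5.82-fold higher in ARP1. BIK was higher by 1.49-fold and 1.46-fold, but lay near the array median in every line.

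In limma's test with Benjamini-Hochberg adjustment over 15173 genes, with a call at an adjusted p under 0.05, all 10 genes differed between ARP1 and JJN3, where 46.7% of all genes were called, and all 10 between ARP1 and RPMI-8226, where 46.3% were. In both contrasts 4 were higher and 6 lower in ARP1, where 22.4% of all genes were higher and 24.2% lower against JJN3, and 23.0% higher and 23.3% lower against RPMI-8226. None of the 10 passed between JJN3 and RPMI-8226, where 15.5% of genes were called, and an unadjusted p under 0.05 was found for 3 of the 10 and for 28.5% of all genes. The 95% interval of that difference ran from 0.00006 to 0.57 for BCL2, from 0.0003 to 1.001 for BCL2A1 and from -0.59 to -0.04 for BAK1. These contrasts compare 1 line with another across 4 differently treated arrays each, so the spread behind them is that of 1 culture per treatment. The plasma and B cell marker levels given above moved with the same split, and their part in it was not tested. Fewer cells of a type and less RNA per cell cannot be told apart in such bulk RNA.

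**Figure D1:**
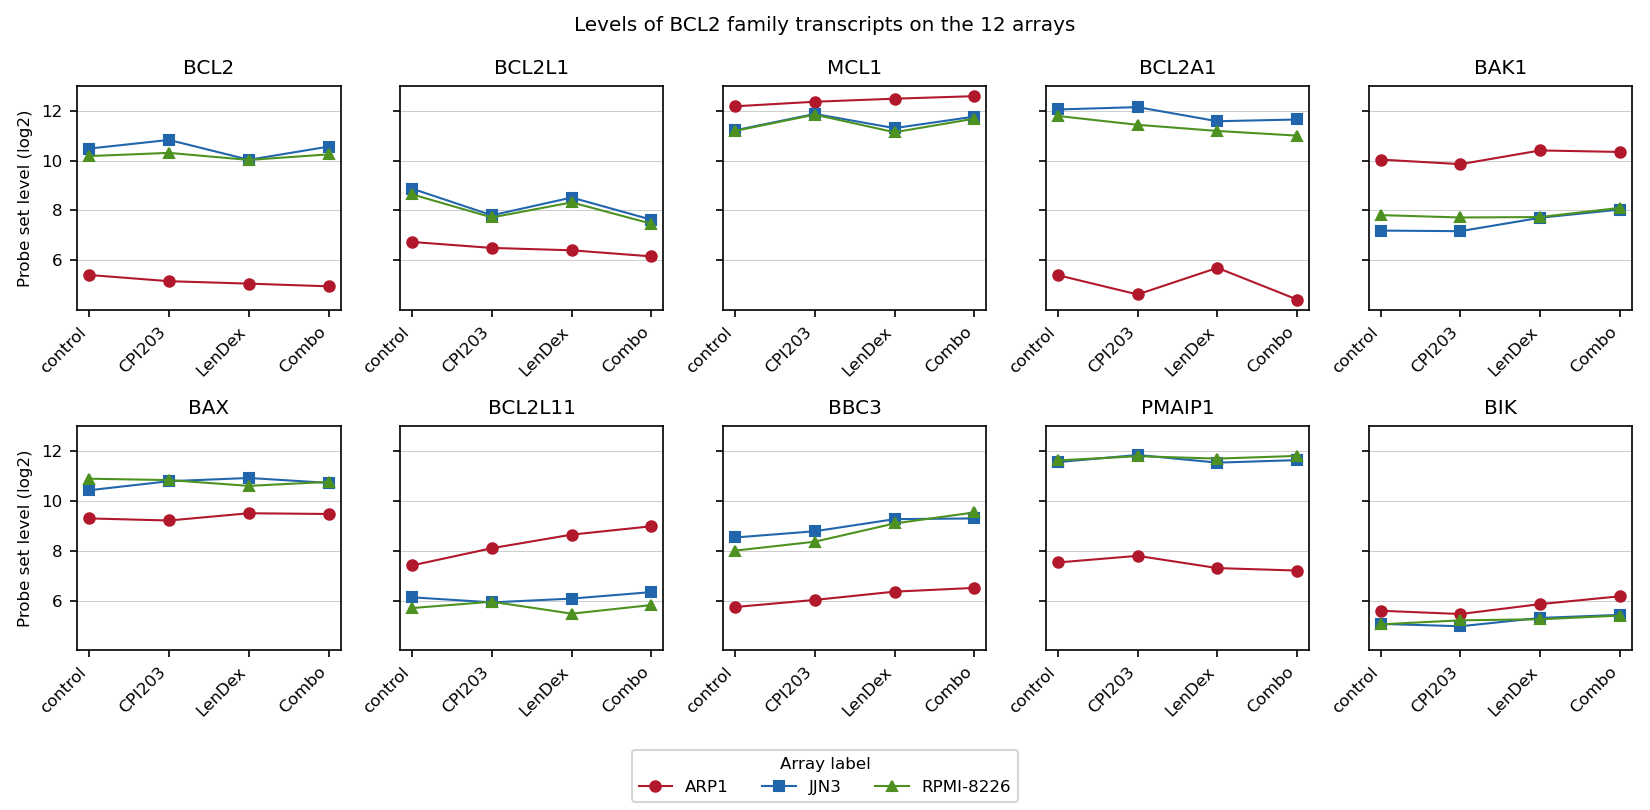
Log2 level of each of the 10 genes (y axis, 1 probe set per gene) under the 4 treatments (x axis) on the 12 arrays, with a point per array and a line joining the arrays of each label. ARP1 lies apart from the other labels for all 10 genes, while JJN3 and RPMI-8226 run close together. Of all genes tested, 46.7% were called between ARP1 and JJN3 and 46.3% between ARP1 and RPMI-8226 (limma). The share of all genes without overlap was not counted. BCL2 is at 4.97 to 5.42 in ARP1 and at 10.02 to 10.82 elsewhere.

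CPI203 lowered BCL2L1 and raised MCL1. Both average effects compare the 6 arrays with CPI203 with the 6 without it, within lines and over both levels of LenDex. BCL2L1, the gene of BCL-XL, read 6.74 under control, 6.50 under CPI203, 6.41 under LenDex and 6.16 under Combo in ARP1. It read 8.87, 7.81, 8.52 and 7.63 in JJN3. It read 8.65, 7.72, 8.32 and 7.47 in RPMI-8226. In every line both arrays with CPI203 lay under their partners without it, and in JJN3 and RPMI-8226 the arrays with and without CPI203 did not overlap. BCL2L1 fell by 0.70 ± 0.12 (SE) on the log2 scale, 1.63-fold, with an adjusted p of 0.0183 (limma), and was lower in 3 of 3 lines. By line the average difference was -0.24 for ARP1, while JJN3 showed -0.98 and RPMI-8226 -0.89. The test of whether the lines differed gave an adjusted p of 0.125 (limma).

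MCL1 moved the other way in the same arrays. In JJN3 and RPMI-8226 the 4 arrays with CPI203 ranged from 11.67 to 11.86 and the 4 without from 11.13 to 11.30, with no overlap. In ARP1 the arrays overlapped, since LenDex alone (12.47) lay above CPI203 alone (12.35). MCL1 rose by 0.43 ± 0.10 (SE), 1.35-fold, with an adjusted p of 0.0347 (limma), and was higher in 3 of 3 lines. ARP1 showed 0.14, JJN3 0.56 and RPMI-8226 0.60, with an adjusted p of 0.301 for the difference between lines (limma). So 2 of 10 members were called, 1 in each direction, where 7.28% of all genes were called, 3.30% higher and 3.99% lower. The median difference of the 10 was 0.11, against -0.003 over all genes tested.

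Both calls were lost without JJN3, without RPMI-8226 or without the JJN3 control array. Without the JJN3 control array the adjusted p was 0.0577 for BCL2L1 and 0.0930 for MCL1, without JJN3 it was 0.340 and 0.380, without RPMI-8226 0.331 and 0.390, and with JJN3 and RPMI-8226 averaged 0.263 and 0.323 (limma). The differences then lay between -0.56 and -0.65 for BCL2L1 and between 0.35 and 0.42 for MCL1. Few genes were called at all in these fits. Without JJN3, without RPMI-8226 and with these lines averaged, limma called 0 of all 15173 genes with CPI203, and 1879, 1776 and 2076 had an unadjusted p under 0.05. Without the JJN3 control array it called 118. Without the ARP1 arrays both stayed called, BCL2L1 at -0.93 and MCL1 at 0.58, and both then also passed in CPI203 against control. That fit called 2399 of all 15173 genes with CPI203 and 1015 in CPI203 against control, where the main fit called 1105 and 1.

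**Figure D2:**
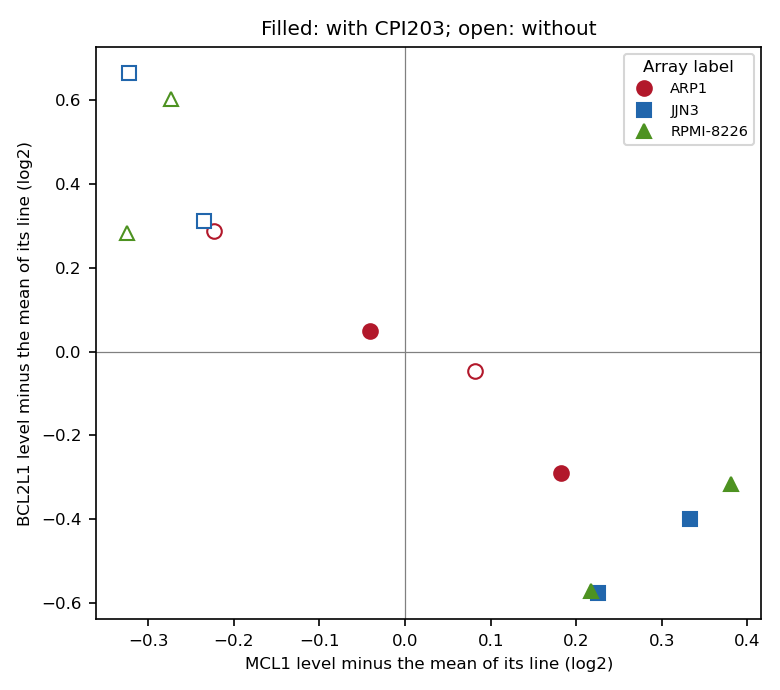
Level of BCL2L1 against level of MCL1 on each of the 12 arrays, both as log2 deviations from the mean of their cell line. In JJN3 and RPMI-8226, arrays with CPI203 (filled) lie toward higher MCL1 and lower BCL2L1 and arrays without it (open) toward the opposite corner. In ARP1 only Combo and control do so. There CPI203 alone lies under the line mean for MCL1 and over it for BCL2L1, and LenDex alone the other way. JJN3 and RPMI-8226 spread farther than ARP1, in which the CPI203 differences were -0.24 for BCL2L1 and 0.14 for MCL1.

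The probe sets of these genes did not all move alike. For BCL2L1, the brightest probe set fell by 0.70 when probe sets were tested singly (adjusted p = 0.0213, limma), a second gave -0.43 (adjusted p = 0.0712) and the third, close to the array median, gave -0.03. For MCL1, the 4 bright probe sets gave 0.43, 0.54, 0.58 and 0.66, of which 2 passed, and the 2 dim ones gave 0.01 and -0.0005. When the probe sets of a gene were averaged instead, BCL2L1 was at -0.39 (adjusted p = 0.0518) and MCL1 at 0.37 (adjusted p = 0.0580), both from limma.

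The other survival genes did not pass for CPI203. BCL2A1 was at -0.40 (95% interval -0.81 to 0.006, adjusted p = 0.214, limma), made up of -1.02 for ARP1, where its level is low, and 0.08 and -0.27 for JJN3 and RPMI-8226. BCL2 was at 0.14 (interval -0.09 to 0.38), with -0.18, 0.44 and 0.18 in the 3 lines. The pore formers BAK1 (0.06, interval -0.17 to 0.28) and BAX (0.03, interval -0.20 to 0.25) showed no difference beyond their spread. Among the BH3-only genes BBC3 was at 0.25 (interval 0.01 to 0.49, adjusted p = 0.189), BCL2L11 at 0.28 (interval -0.15 to 0.71), PMAIP1 at 0.14 (interval -0.05 to 0.33) and BIK at 0.09 (interval -0.08 to 0.26).

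The stretches upstream of BCL2L1 are shown because this gene fell most under CPI203. RefSeq (GRCh38.p14) gives it a pair of starts on the minus strand, at chr20:31723964-31724213 and chr20:31722869-31723118 for the 250 bases before each. Both are printed 5′ to 3′ and would carry capitals where a motif matched.
BCL2L1 upstream start: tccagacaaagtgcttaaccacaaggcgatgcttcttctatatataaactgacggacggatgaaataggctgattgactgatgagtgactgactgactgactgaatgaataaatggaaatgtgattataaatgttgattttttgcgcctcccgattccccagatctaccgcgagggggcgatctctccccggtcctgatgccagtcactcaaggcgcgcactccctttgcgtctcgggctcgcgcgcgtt
BCL2L1 downstream start: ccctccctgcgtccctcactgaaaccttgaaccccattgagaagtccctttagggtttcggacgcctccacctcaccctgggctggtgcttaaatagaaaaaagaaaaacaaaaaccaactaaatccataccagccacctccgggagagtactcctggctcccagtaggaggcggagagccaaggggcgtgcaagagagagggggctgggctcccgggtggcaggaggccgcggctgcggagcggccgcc
Motifs searched on both strands were AGAACA (the core bound by the glucocorticoid receptor), CACGTG (the E box of MYC and MAX), TGTTTAC (a FOXO site) and CCAAT. Among 35116 promoter windows of the same length, 12.4% held AGAACA, 6.34% CACGTG, 2.98% TGTTTAC and 32% CCAAT. These letters were not found in either BCL2L1 window, and their GC content was 50% and 60.4% against a median of 58% over all windows. MCL1 and BIK had no matching entry in the promoter table.

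LenDex raised 3 death genes, BBC3, BAK1 and BIK. BBC3 encodes PUMA, a BH3-only protein that binds all of the main survival proteins. It read 5.74 under control, 6.03 under CPI203, 6.36 under LenDex and 6.51 under Combo in ARP1. It read 8.52, 8.77, 9.26 and 9.28 in JJN3, and 7.997, 8.35, 9.08 and 9.52 in RPMI-8226. Within each line both LenDex-treated arrays lay above both arrays without it. BBC3 rose by 0.77 ± 0.11 (SE), 1.70-fold, with an adjusted p of 0.00869 (limma), with line averages of 0.55 (ARP1), 0.62 (JJN3) and 1.13 (RPMI-8226). Both BBC3 probe sets passed when tested singly, at 0.77 and 0.78.

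BAK1, a pore former, was higher with LenDex by 0.42 ± 0.10 (SE), 1.34-fold, with an adjusted p of 0.0480 (limma). In ARP1 and JJN3 both LenDex-treated arrays lay above both others. In RPMI-8226 they overlapped, since LenDex alone (7.74) lay under control (7.82), and the line average there was 0.15 against 0.43 and 0.69. The 4 BAK1 probe sets that passed the filter were all higher, by 0.15 to 0.42, and none passed when tested singly. BIK, a BH3-only protein of the endoplasmic reticulum, read 5.59, 5.46, 5.86 and 6.17 in ARP1 under the 4 conditions. JJN3 gave 5.07, 4.97, 5.31 and 5.43, and RPMI-8226 gave 5.05, 5.21, 5.25 and 5.398. Within each line both LenDex-treated arrays were the highest. It was higher by 0.34 ± 0.08 (SE), 1.27-fold, with an adjusted p of 0.0375 (limma), but only 1 of its 3 probe sets showed this and the others gave -0.08 and 0.04.

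These 3 of 10 members, all higher, stand beside 4.25% of all genes called, 1.73% higher and 2.52% lower. The median of the 10 was 0.07, against 0.008 over all genes tested. Without the JJN3 control array BBC3 stayed called, while BAK1 (adjusted p = 0.111, limma) and BIK (0.0798) did not. Without ARP1 BBC3 again stayed called, with BAK1 at 0.110 and BIK at 0.130. Of all 15173 genes limma called 237 without the JJN3 control array and 918 without ARP1. Without JJN3, without RPMI-8226 or with these lines averaged, none of the 3 passed, and BBC3 was at adjusted p of 0.176, 0.151 and 0.123 (limma) with differences of 0.84, 0.59 and 0.71. These fits called 2, 5 and 4 of all 15173 genes with LenDex. With the probe sets averaged, BIK was at 0.10 (adjusted p = 0.465) and BAK1 at 0.29 (adjusted p = 0.118).

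**Figure D3:**
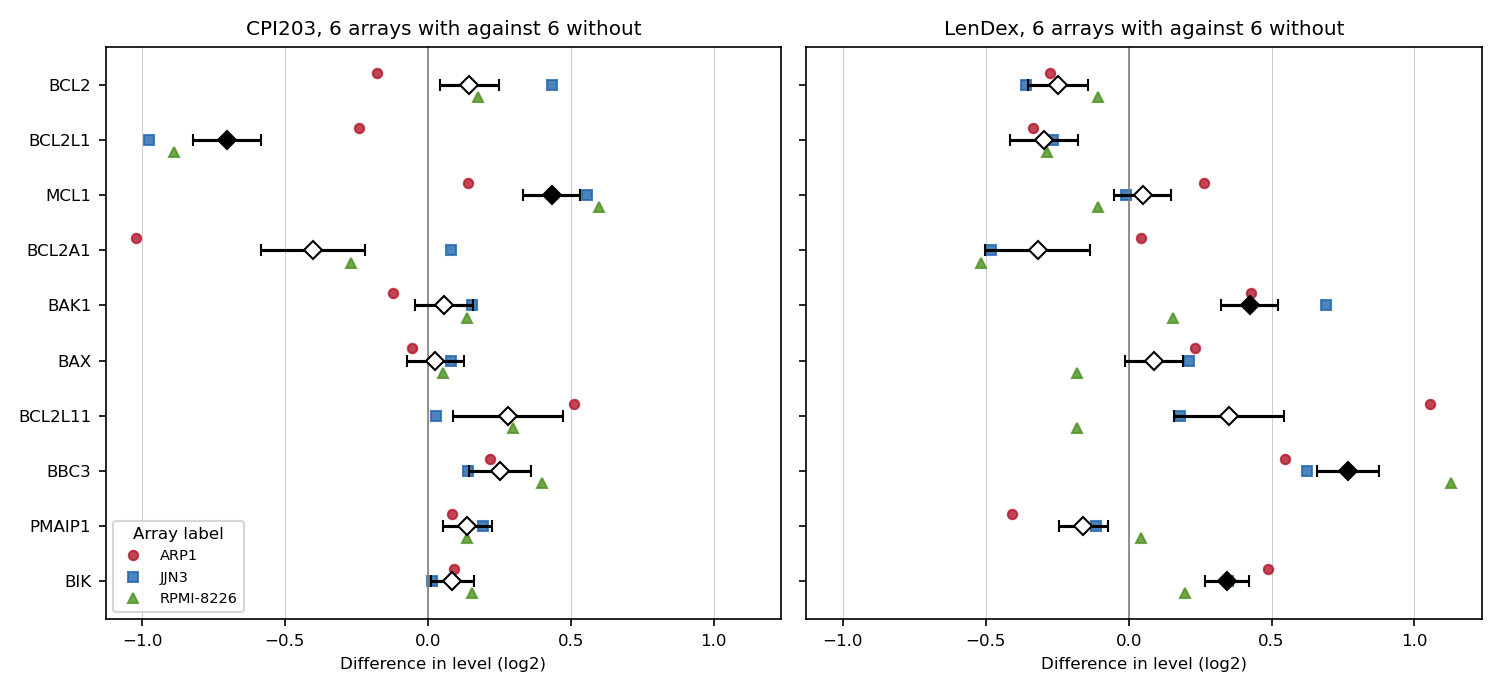
Average difference in log2 level with CPI203 (left) and with LenDex (right) for the 10 genes. Small symbols are the 3 lines, diamonds the fitted average with its SE, and filled diamonds the genes with an adjusted p under 0.05. With CPI203 BCL2L1 (-0.70) and MCL1 (0.43) are filled, and with LenDex BBC3 (0.77), BAK1 (0.42) and BIK (0.34).

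BCL2L11, whose product BIM activates BAX and BAK, did not pass as an average and showed its changes in ARP1. It read 7.41 under control, 8.09 under CPI203, 8.64 under LenDex and 8.97 under Combo in ARP1. In JJN3 it read 6.13, 5.93, 6.08 and 6.34, and in RPMI-8226 5.70, 5.95, 5.47 and 5.82. The LenDex average was 0.35 ± 0.19 (SE; adjusted p = 0.371, limma), made of 1.05 for ARP1 and 0.18 and -0.18 for JJN3 and RPMI-8226. The test of a difference between lines gave an adjusted p of 0.128 (limma). Of its 13 probe sets past the filter, 13 were higher with LenDex in ARP1 (0.10 to 1.94, median 1.36), 11 in JJN3 (median 0.18) and 5 in RPMI-8226 (median -0.04). These probe sets read 1 gene on the same arrays and are not replicates. Tested singly, 2 of them passed the test of a difference between lines, with adjusted p of 0.0129 and 0.0320 (limma). In JJN3 and RPMI-8226 the gene lay close to the array median.

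Other members did not pass for LenDex. BCL2L1 was at -0.30 (95% interval -0.56 to -0.03, adjusted p = 0.218, limma) and BCL2 at -0.25 (interval -0.48 to -0.02, adjusted p = 0.236), each lower in 3 of 3 lines. BCL2A1 was at -0.32 (interval -0.73 to 0.09), made up of 0.04 for ARP1 and -0.48 and -0.52 for JJN3 and RPMI-8226. Without ARP1 it passed, at -0.50 (adjusted p = 0.0371, limma), where 918 of 15173 genes were called. MCL1 was at 0.05 (interval -0.18 to 0.27), BAX at 0.09 (interval -0.13 to 0.31) and PMAIP1 at -0.16 (interval -0.35 to 0.03). None of the 10 passed the tests of whether the CPI203 or the LenDex effect differed between lines, where 0.323% and 0.369% of all genes were called. An unadjusted p under 0.05 was found for 4 and 3 of the 10, and for 14.7% and 13.6% of all genes.

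**Figure D4:**
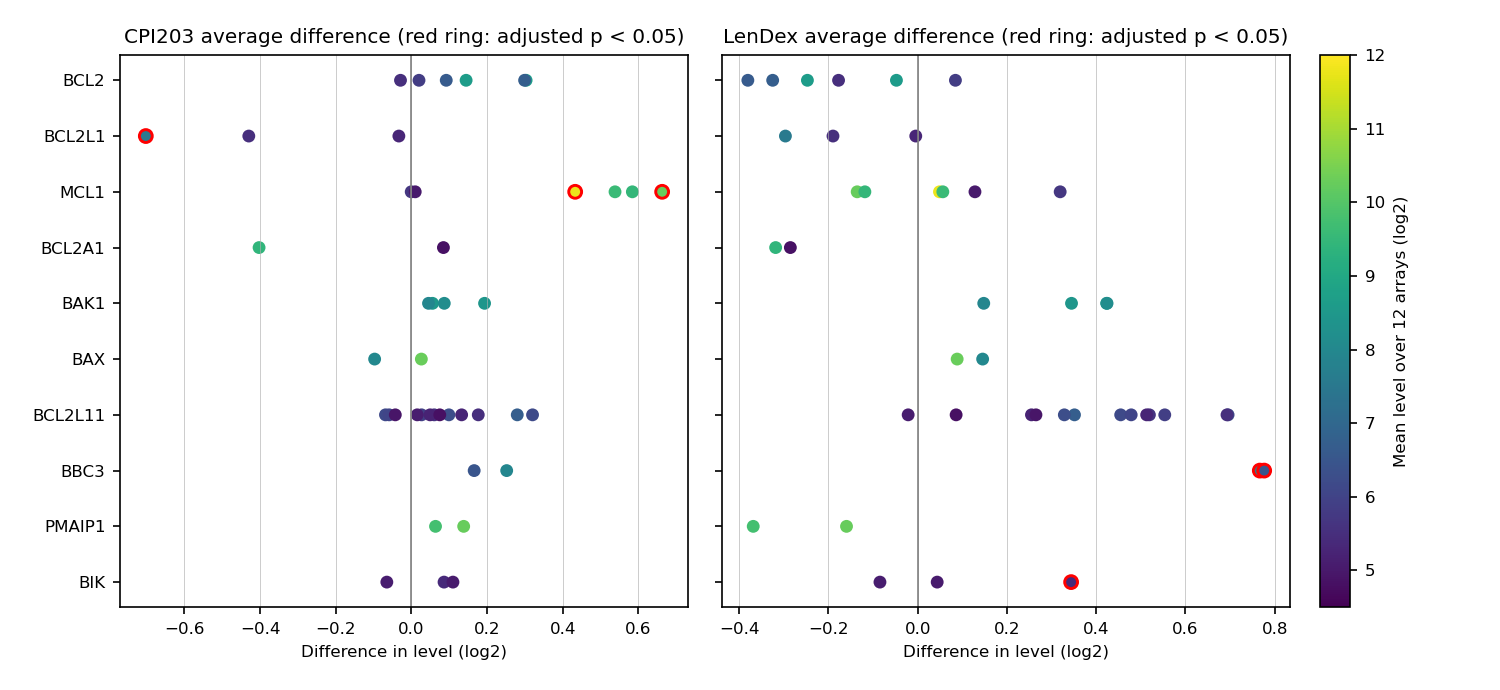
Average log2 difference with CPI203 (left) and with LenDex (right) for each of the 43 probe sets of the 10 genes that passed the filter on low levels, coloured by mean level over the 12 arrays. Red rings mark an adjusted p under 0.05 when probe sets were tested singly. Bright MCL1 probe sets lie at 0.43 to 0.66 with CPI203, and both BBC3 probe sets lie at 0.77 and 0.78 with LenDex.

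The upstream stretches of death genes are shown because BBC3 and BAK1 rose with LenDex, BCL2L11 was higher with it in ARP1, and BAX was not called under either drug. The 250 bases before each start (RefSeq, GRCh38.p14) were chr19:47232668-47232917 on the minus strand for BBC3, chr6:33580277-33580526 on the minus strand for BAK1, chr2:111120664-111120913 on the plus strand for BCL2L11 and chr19:48954625-48954874 on the plus strand for BAX. Capitals mark matches to the motifs named for BCL2L1, read 5′ to 3′ along the gene's strand, so that CCAAT and TGTTTAC can also appear as ATTGG and GTAAACA.
BBC3: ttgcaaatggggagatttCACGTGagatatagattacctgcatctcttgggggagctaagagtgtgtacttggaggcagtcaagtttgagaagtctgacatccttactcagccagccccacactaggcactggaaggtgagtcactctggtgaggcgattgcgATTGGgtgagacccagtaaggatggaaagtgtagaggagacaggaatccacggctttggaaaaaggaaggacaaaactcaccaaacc
BAK1: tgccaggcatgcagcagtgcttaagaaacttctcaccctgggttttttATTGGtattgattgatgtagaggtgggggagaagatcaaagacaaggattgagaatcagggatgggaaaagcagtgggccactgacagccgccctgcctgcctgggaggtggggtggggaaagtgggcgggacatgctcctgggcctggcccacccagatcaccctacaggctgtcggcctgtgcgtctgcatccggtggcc
BCL2L11: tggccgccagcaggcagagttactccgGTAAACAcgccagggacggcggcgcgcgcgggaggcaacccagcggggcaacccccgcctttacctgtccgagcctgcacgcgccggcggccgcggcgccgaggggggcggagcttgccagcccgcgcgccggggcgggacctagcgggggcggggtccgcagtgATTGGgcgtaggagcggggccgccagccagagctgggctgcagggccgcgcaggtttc
BAX: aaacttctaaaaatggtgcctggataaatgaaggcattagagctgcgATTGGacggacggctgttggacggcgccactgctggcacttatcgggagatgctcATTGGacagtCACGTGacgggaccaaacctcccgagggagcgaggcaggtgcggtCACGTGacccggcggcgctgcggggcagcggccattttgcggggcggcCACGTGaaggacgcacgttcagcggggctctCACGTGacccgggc
BAX held 4 CACGTG matches, beginning 138, 93, 45 and 14 bases before the start, and 2 CCAAT matches. BBC3 held 1 CACGTG, 232 bases before the start, and 1 CCAAT. BCL2L11 held 1 TGTTTAC match, 223 bases before the start, and 1 CCAAT, and BAK1 held 1 CCAAT. No match overlapped another, and AGAACA was not found in these windows. A match is only a run of letters and was not tied to binding here.

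The Combo arrays, with all 3 drugs, are among the 6 arrays with CPI203 and the 6 with LenDex. Their comparison with control is therefore no separate test of the average effects. Against control, Combo arrays had BBC3 higher by 1.02 ± 0.15 (SE), 2.03-fold (adjusted p = 0.00701, limma). BCL2L1 fell by 0.998 ± 0.17, 1.997-fold (adjusted p = 0.0110), and BIK was higher by 0.43 ± 0.11 (adjusted p = 0.0379). These 3 of 10 stand beside 9.15% of all genes called, 3.55% higher and 5.60% lower. MCL1 (0.48, adjusted p = 0.0652), BAK1 (0.48, adjusted p = 0.0669), BCL2A1 (-0.72, adjusted p = 0.117) and BCL2L11 (0.63, adjusted p = 0.190) did not pass, and BAX (0.11), BCL2 (-0.10) and PMAIP1 (-0.02) lay near 0. The median of the 10 was 0.27, against 0.010 over all genes tested. Without the JJN3 control array only BBC3 stayed called, and BCL2L1 was at an adjusted p of 0.0571 (limma), where 300 of 15173 genes were called. Without ARP1, BIK lost its call (0.36, adjusted p = 0.106), BBC3 and BCL2L1 kept theirs, and MCL1 (0.52, adjusted p = 0.0226) and BCL2A1 (-0.59, adjusted p = 0.0354) passed. That fit called 2219 of all 15173 genes, against 1388 in the main fit. No member passed without JJN3, without RPMI-8226 or with these lines averaged, where limma called 0, 2 and 3 of all 15173 genes (2236, 2027 and 2367 had an unadjusted p under 0.05).

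The other contrasts of 3 arrays against 3 called few genes, and none of the 10 passed in any. CPI203 against control called 0.00659% of all genes, with BCL2L1 at -0.74 ± 0.17 (SE; adjusted p = 0.103, limma) and MCL1 at 0.50 ± 0.14 (adjusted p = 0.147), and 2 of the 10 had an unadjusted p under 0.05, against 16.2% of all genes. LenDex against control called 0.461%, with BBC3 at 0.81 ± 0.15 (adjusted p = 0.0582) and 1 of the 10 at an unadjusted p under 0.05, against 13.7% of all genes. Combo against LenDex called 0% in limma, and an unadjusted p under 0.05 was found for 2 of the 10 and for 14.9% of all genes. There BCL2L1 was at -0.66 (adjusted p = 0.187) and MCL1 at 0.37 (adjusted p = 0.276). Combo against CPI203 called 0.0461%, with BBC3 at 0.72 (adjusted p = 0.157), BAK1 at 0.58 (adjusted p = 0.182) and BIK at 0.45 (adjusted p = 0.182), and 3 of the 10 had an unadjusted p under 0.05, against 10.9% of all genes. These contrasts share their control or partner arrays and are given side by side only.

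No member passed the test of interaction, that is, of a CPI203 effect that differs with and without LenDex. In limma 0% of all genes were called there, and all 10 members had an adjusted p of 0.9997. An unadjusted p under 0.05 was found for 0 of the 10 and for 3.11% of all genes. The interaction was 0.08 ± 0.24 (SE) for BCL2L1 (95% interval -0.46 to 0.62), -0.13 ± 0.20 for MCL1 (-0.58 to 0.32), -0.09 ± 0.22 for BBC3 (-0.57 to 0.39) and 0.31 ± 0.20 for BAK1 (-0.14 to 0.76).

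Other genes of the death pathway gave few calls. Over all genes 7.28% were called with CPI203 and 4.25% with LenDex, and 24.1% and 18.9% had an unadjusted p under 0.05, which are the shares to set beside the counts that follow. None of 13 other BCL2 family genes passed for either drug (4 with CPI203 and 3 with LenDex had an unadjusted p under 0.05, limma). The smallest p-values with CPI203 were those of BCL2L12 (0.35, adjusted p = 0.0532) and the mitophagy receptor BNIP3L (0.26, adjusted p = 0.0622). With LenDex they were those of the survival gene BCL2L2 (0.30, adjusted p = 0.0965) and of BCL2L13 (-0.23, adjusted p = 0.110). Their medians were 0.03 and 0.06, against -0.003 and 0.008 over all genes tested. BCL2L12 and BNIP3L passed with CPI203 at a mean level of 6 or more and with robust moderation and a variance trend, and BCL2L2 passed under cyclic loess, lower with CPI203 and higher with LenDex. BCL2L12 also passed with CPI203 with probe sets averaged and without ARP1, where 1241 of 13765 and 2399 of 15173 genes were called. BID passed, lower, with CPI203 when probe sets were tested singly and when they were averaged. BMF passed, higher, with LenDex when probe sets were tested singly. Between ARP1 and JJN3 4 of the 13 were called and between ARP1 and RPMI-8226 3, all lower in ARP1, where 24.2% and 23.3% of all genes were lower. BNIP3 was at -3.76 and -4.42.

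Of 13 caspase and mitochondrial death genes measured, 1 was called for each drug. CASP8, the initiator caspase of death receptors, fell by 0.43 ± 0.09 (SE) with CPI203 (adjusted p = 0.0294, limma), by 0.30, 0.50 and 0.48 in the 3 lines. CYCS, the cytochrome c gene, fell by 0.25 ± 0.06 with LenDex (adjusted p = 0.0497, limma), by 0.25, 0.24 and 0.25. The list medians were -0.02 and 0.06. Of 7 inhibitor of apoptosis genes measured, none passed with CPI203 (0 with an unadjusted p under 0.05, limma), where BIRC6 was at 0.12 and CFLAR at -0.17. With LenDex 2 were called higher. CFLAR, which encodes the caspase 8 inhibitor c-FLIP, rose by 1.19 ± 0.20 (adjusted p = 0.0143, limma), by 1.996 in ARP1 and by 0.73 and 0.85 in the other lines, and the lines differed (adjusted p = 0.0456, limma). NAIP, known as an inflammasome sensor and caspase inhibitor, rose by 0.89 ± 0.19 (adjusted p = 0.0337, limma), at 0.12 in ARP1 and 1.25 and 1.29 in the other lines. The medians of this list were -0.01 with CPI203 and 0.005 with LenDex. CFLAR was thus higher in the same LenDex arrays as BBC3.

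Among 10 genes known for the turnover of BCL2 family proteins, FBXW7, a ligase subunit that targets MCL1, was called with LenDex (0.51 ± 0.11 SE, adjusted p = 0.0371, limma), by 0.18, 0.46 and 0.88 in the 3 lines. None passed with CPI203 (3 with an unadjusted p under 0.05, limma), where HUWE1, another MCL1 ligase, was at 0.25 (adjusted p = 0.0780) and the kinase gene GSK3B at 0.24 (adjusted p = 0.156). HUWE1 passed, higher, at a mean level of 6 or more and with robust moderation and a variance trend. GSK3B, FBXO10 and MAPK8 passed, higher, without ARP1, where 2399 of 15173 genes were called with CPI203. The list medians were 0.15 with CPI203 and 0.07 with LenDex. Of 17 tested genes for transcription factors known to act on the family, 3 fell with CPI203. MYB was at -1.04 ± 0.12 (adjusted p = 0.00873, limma), MYC at -0.51 ± 0.10 (adjusted p = 0.0250) and E2F1 at -0.35 ± 0.08 (adjusted p = 0.0396). None passed with LenDex (7 with an unadjusted p under 0.05, limma), where REL was at -0.71 (adjusted p = 0.0823) and the glucocorticoid receptor gene NR3C1 at -0.25 (adjusted p = 0.108). Both passed, lower, with probe sets tested singly, with probe sets averaged and with robust moderation and a variance trend. REL also passed without ARP1, where 918 of 15173 genes were called with LenDex. The list medians were -0.03 and -0.05. Without the JJN3 control array only MYB with CPI203 and CFLAR with LenDex stayed called of these lists, and none did without JJN3, without RPMI-8226 or with these lines averaged. CYCS also lost its call without ARP1, and CASP8 when probe sets were averaged. Of the plasma cell markers, 0 of 12 were called with CPI203 (limma), 6 had an unadjusted p under 0.05, and their median was -0.19. The antigen SLAMF7 was the only one of 12 plasma cell markers called with LenDex (-1.32 ± 0.22, adjusted p = 0.0146, limma), and SLAMF7 and FKBP11 were called lower in Combo against control (-1.85 and -0.46). Their part in the results for the 10 genes was not tested. None of the 9 B cell markers was called with either drug (3 with CPI203 and 1 with LenDex had an unadjusted p under 0.05, limma).

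The genes most like the members were found over the 12 arrays after each line's mean was taken out, by Pearson's r. Closest to MCL1 were SERTAD1 (0.978), SNX1 (0.973) and SDF2 (0.969). Closest to BCL2L1 were FAM136A (0.993), PPIL1 (0.989) and TIPIN (0.988). BCL2L11 was closest to ANXA4 (0.936), SSH3 (0.925) and VAMP5 (0.906), and BCL2 to UGDH (0.962), ABTB2 (0.933) and PNP (0.932). All these arrays share the same 4 treatments and each r is the highest of 15173 genes, so the values describe likeness on these arrays only.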

How the data were processed

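RNA from 12 cultures (3 cell lines, 4 groups, 1 array each) was hybridised to Affymetrix arrays. The deposited values are log2 levels of 49386 probe sets, which the authors made with the RMA method; the submitters' processing notes name Expression Console 1.1 from Affymetrix as the software. RMA corrects background, quantile-normalizes and summarises probes, which forces the arrays to a common distribution. Of the probe sets, 45253 carry 1 gene symbol in the platform annotation, 1327 several and 2713 none, and 93 are controls. Symbols were updated by gene identifier for 45172 of them. No detection calls were used here, and the number of arrays limits the precision.

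Each gene was represented by its probe set of highest mean level. Of 18239 genes, the 15173 that reached log2 5 on a minimum of 3 arrays entered the fit, made with limma 3.58.1 in R 4.3.3, with group and cell line as terms (6 residual degrees of freedom), and p-values were two-sided and Benjamini-Hochberg adjusted. Lines with the same name are the same cell line, so the line pairs the arrays across groups: deviations from group means correlated at 0.82 to 0.94 between arrays of the same line. A moderated F test compared effects between lines (3 residual degrees of freedom). The script was tested on simulated data. Nothing in the labels says how the cultures were repeated. The p-values rest on the array scatter left after the terms of each fit, moderated over all genes. That scatter comes from these 3 lines only and does not measure the spread between repeat cultures of a line.

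Exposure time for the CPI203 arrays comes from the treatment protocol. The 10 genes, the pathway lists and the marker lists were chosen with earlier results of these data known. All 10 genes were named, with called genes of each list (up to 4, or the 2 with the smallest p where none was called) and the 3 genes most like MCL1, BCL2L1, BCL2L11 and BCL2. Alternatives covered the level filter, the choice of probe set, cyclic loess, the variance model, the line block and leaving out arrays or lines. Upstream sequences came from RefSeq (GRCh38.p14), with 8 of the 10 genes matched.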

Additional observations from a re-analysis of the deposited data

How the results depend on the processing

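Of the values of single genes under the alternatives, 563 kept their direction and side of the threshold, 99 lost their call, 9 gained one and 10 turned direction. The 563 include line differences and values uncalled in the main fit, which had no call to lose. With CPI203, BCL2L1 and MCL1 each kept their call in 6 alternatives and lost it in 6. With LenDex, BBC3 kept it in 8 and lost it in 4, BAK1 in 4 and 8, and BIK in 2 and 9. In Combo against control this was 8 and 5 for BBC3, 7 and 6 for BCL2L1, and 2 and 10 for BIK. All 10 line differences between ARP1 and each other line stayed called under every alternative run for them, except that BIK was not tested at a mean level of 6 or more. With probe sets averaged the difference from JJN3 shrank to -2.93 for BCL2, -3.54 for BCL2A1 and -0.77 for BCL2L1. With probe sets tested singly, these values follow the same probe set as the main fit. Some other probe sets did not pass. A dimmer BCL2L1 probe set gave -0.37 against JJN3 and -0.17 against RPMI-8226 (adjusted p = 0.0695 and 0.413, limma). A dim MCL1 probe set gave 0.20 and -0.02 (adjusted p = 0.241 and 0.905, limma). The treatment calls did not stay under every alternative. Without the replicate block for cell line, 0 members were called with CPI203, with LenDex and in Combo against control, and likewise 0 with JJN3 and RPMI-8226 averaged. Those fits called few genes at all: 0, 1 and 3 of 15173 without the block (1061, 801 and 1123 at an unadjusted p under 0.05, limma) and 0, 4 and 3 averaged. Combo against control also gave 0 from only the 6 arrays compared, where 2 of 15173 genes were called. With the probe sets of a gene averaged, the counts were 0 with CPI203 and 1 (BBC3) with LenDex. Of 13765 genes, 1241 and 831 were called there. Leaving out a line or the JJN3 control array gave 0 to 2 called with CPI203, 0 to 2 with LenDex and 0 to 4 in Combo against control. Of all 15173 genes these fits called 0 to 2399, 2 to 918 and 0 to 2219, with the most called without ARP1. Without ARP1, CPI203 against control gained 2 (BCL2L1 and MCL1) and Combo against LenDex 1 (BCL2L1), where 1015 and 715 of 15173 genes were called. LenDex against control gained 1 (BBC3) with a mean level of 6 or more, and 1 with robust moderation and a trend in the variance. These fits called 137 of 8407 and 287 of 15173 genes in that contrast. The line difference gave, for LenDex, 1 (BCL2L11) with probe sets tested singly, 1 with probe sets averaged and 2 (BCL2L11 and MCL1) with the trend, and for CPI203 2 (BCL2A1 and MCL1) with the trend. For LenDex these fits called 112 of 35458 probe sets, 88 of 13765 genes and 471 of 15173 genes. For CPI203 the fit with the trend called 673 of 15173. BIK with LenDex was lost under cyclic loess (adjusted p = 0.0505, limma) and with the trend (0.0525), whereas MCL1 and BAK1 in Combo against control passed under cyclic loess, the stricter filter and the trend. The cause of these changes was not tested, and the settings that leave arrays out also had fewer samples.

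Values that turned were all uncalled and mostly close to 0. With the probe sets of a gene averaged, BAX with CPI203 became -0.035, and under cyclic loess PMAIP1 in Combo against control became 0.032. The others turned when a line or the JJN3 control array was left out. Over these settings the CPI203 difference ran from -0.0012 to 0.31 for BCL2, from -0.0015 to 0.14 for BAK1 and from -0.042 to 0.068 for BAX (-0.0017 without JJN3). The LenDex difference of MCL1 ran from -0.058 to 0.127. In Combo against control the range was -0.19 to 0.073 for BCL2, -0.022 to 0.24 for BAX and -0.12 to 0.13 for PMAIP1. The alternatives for Combo values, for pathway genes and for line differences of single genes were chosen after seeing the data.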
